A study of Mus musculus with 5 samples.

Results

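The genes of the class I histone deacetylases, Hdac1, Hdac2, Hdac3 and Hdac8, all carried peaks of histone H3 acetylated at lysine 9 (H3K9ac) near their transcription starts, in striatal progenitor cells treated with DOP and in untreated cells. A peak was assigned to a gene if no more than 10 kb separated its centre from any annotated transcript start of that gene. By this rule 15 of the 34286 peaks of the DOP-treated list and 15 of the 33355 peaks of the untreated list belonged to the 4 genes. In each list 9 of the 15 peaks had a start of the deacetylase itself as their nearest protein-coding start. The other 6 in each list lay nearer to a start of Marcksl1, Rell2 or Diap1. Over all 22380 annotated protein-coding genes, 57.7% had at least 1 DOP-treated peak by the same rule and 56.9% had at least 1 untreated peak, so a gene with a peak was the more common case.

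H3K9ac was measured by chromatin immunoprecipitation and sequencing (ChIP-seq) in STHdh Q111 cells, a mouse striatal progenitor line on a C57BL/6 background that is homozygous for mutant huntingtin with an expanded polyglutamine tract and is conditionally immortalized. All cells were grown at 33 °C and then kept for 24 h in serum-free medium. That medium held 4 mM 4-deoxypyridoxine hydrochloride (DOP), an inhibitor of sphingosine-1-phosphate lyase, for 2 treated samples, or vehicle alone for 2 untreated samples, and 1 further sample without DOP was precipitated with IgG as the negative control. The comparison asked where this mark differed after DOP, a question tied to class I deacetylases because sphingosine-1-phosphate is known as an inhibitor of Hdac1 and Hdac2. No cells with wild-type huntingtin were in the ChIP-seq set, all samples came from 1 line, and a permanent line in culture is a limited model of striatal neurons. Peaks were deposited as 1 list per condition, so no count or rank below has an error between replicates, and no test of a condition was possible. Every difference below is a difference between 2 lists.

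Markers of the labelled cell type were present in part. Vim, an intermediate filament gene listed here among the progenitor markers, had 3 DOP-treated and 4 untreated peaks. The other listed progenitor genes, Nes, Sox2 and Pax6, had none in either list. Of the striatal lineage genes, Dlx1 had 4 and 5 peaks, Foxp1 3 and 7, and Ebf1 4 and 3, Dlx2 had 1 DOP-treated peak only, and Gsx2 and Bcl11b had none. Drd2 and Adora2a, which mark mature medium spiny neurons, had none, while Ppp1r1b had 4 peaks in each list, the highest of those nearest to it at the 15.1 percentile of all peaks with DOP and the 9.69 percentile without. The fibroblast-type genes Col1a1, Col1a2 and Fn1 had 12 DOP-treated and 14 untreated peaks in their windows, of which 7 and 6 were nearest to these genes and none to Fn1.

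Histone deacetylases remove acetyl groups from lysines of histones and other proteins, and class I holds the zinc-dependent enzymes most closely related to yeast Rpd3. Hdac1 and Hdac2 are the paired catalytic subunits of the Sin3, NuRD and CoREST complexes, Hdac3 works in the NCoR corepressor complexes, and Hdac8 acts without such a complex and deacetylates Smc3, a subunit of the cohesin ring. H3K9ac, one of the marks that these enzymes can remove, is found at the promoters of active genes, and peaks on either side of a start are commonly separated by the nucleosome-free stretch from which transcription begins.

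The deposited peaks are intervals of 200 bp around a single called position, here called the centre, in coordinates of the mouse mm9 assembly. The sequences under the peaks of Hdac1 and Hdac2 that both lists hold are shown because they include the highest-ranked H3K9ac of the group, with the weak upstream pair of Hdac1 beside it, and they read 5′ to 3′ on the strand of the gene. Capitals mark the bases covered by the peak of both lists, and lower case marks the bases covered in 1 list only. The stretch of Hdac1 at chr4:129219521-129219764 (minus strand) lies in its first intron, and its opening 44 bases belong to the DOP-treated peak alone. The stretch at chr4:129220207-129220429 (minus strand) lies upstream of the Hdac1 start, in no annotated part of the gene. For Hdac2 the first sequence, chr10:36694267-36694349 (plus strand), is the part of the start-site pair that precedes the first transcribed base, and the other, chr10:36694617-36694872 (plus strand), lies in its first intron.
Hdac1, first intron: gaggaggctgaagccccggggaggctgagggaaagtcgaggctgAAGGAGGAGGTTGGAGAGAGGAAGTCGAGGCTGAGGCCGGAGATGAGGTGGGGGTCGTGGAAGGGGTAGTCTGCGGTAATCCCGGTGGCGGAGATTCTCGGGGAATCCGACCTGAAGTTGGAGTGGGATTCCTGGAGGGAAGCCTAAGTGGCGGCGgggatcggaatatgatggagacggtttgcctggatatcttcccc
Hdac1, upstream: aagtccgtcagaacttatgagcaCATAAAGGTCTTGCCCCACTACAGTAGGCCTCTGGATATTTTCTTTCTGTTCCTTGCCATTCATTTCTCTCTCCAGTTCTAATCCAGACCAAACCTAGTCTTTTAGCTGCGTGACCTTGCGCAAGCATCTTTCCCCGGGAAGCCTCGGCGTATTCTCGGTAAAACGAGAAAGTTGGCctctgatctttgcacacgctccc
Hdac2, before the start: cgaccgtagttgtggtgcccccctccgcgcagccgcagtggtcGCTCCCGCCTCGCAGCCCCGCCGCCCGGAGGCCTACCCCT
Hdac2, first intron: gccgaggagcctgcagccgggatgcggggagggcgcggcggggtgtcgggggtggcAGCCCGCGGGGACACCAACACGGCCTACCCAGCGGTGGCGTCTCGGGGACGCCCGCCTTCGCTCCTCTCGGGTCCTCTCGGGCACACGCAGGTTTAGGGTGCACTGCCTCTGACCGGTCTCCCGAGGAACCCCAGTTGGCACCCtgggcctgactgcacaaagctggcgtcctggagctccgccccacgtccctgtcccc

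Of these stretches the Hdac2 pair was the richer in G and C. The 83 bases before its start held 77.1% GC and 11 CpG dinucleotides, and the 256 bases of its first intron held 72.7% and 24. The Hdac1 intron stretch of 244 bp held 61.1% GC and 14 CpG, while the 223 bp upstream of Hdac1 held 48.4% and 9. The capitals covered 156 and 177 bp of the Hdac1 pairs and 144 bp of the Hdac2 intron pair, so most of each pair was common to both lists.

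The peaks that a single list held at Hdac1, Hdac2 and Hdac8 are shown next, because they are what made the lists differ at those genes. Here capitals mark CpG dinucleotides, and each run is the whole peak of 200 bp, read 5′ to 3′ on the gene's strand. They lie at chr4:129219127-129219326 (minus strand, first intron of Hdac1), chr10:36694924-36695123 and chr10:36695157-36695356 (plus strand, first intron of Hdac2), and chrX:99700032-99700231 (minus strand, centred in the first intron of Hdac8).
Hdac1, untreated list only: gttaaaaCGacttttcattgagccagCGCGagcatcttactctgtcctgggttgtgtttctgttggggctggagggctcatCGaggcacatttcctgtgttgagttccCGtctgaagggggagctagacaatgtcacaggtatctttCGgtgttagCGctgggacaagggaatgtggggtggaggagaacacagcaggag
Hdac2, DOP-treated list only: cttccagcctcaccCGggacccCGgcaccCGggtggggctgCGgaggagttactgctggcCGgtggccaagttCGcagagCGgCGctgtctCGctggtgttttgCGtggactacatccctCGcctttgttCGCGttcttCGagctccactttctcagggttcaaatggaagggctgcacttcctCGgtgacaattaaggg
Hdac2, untreated list only: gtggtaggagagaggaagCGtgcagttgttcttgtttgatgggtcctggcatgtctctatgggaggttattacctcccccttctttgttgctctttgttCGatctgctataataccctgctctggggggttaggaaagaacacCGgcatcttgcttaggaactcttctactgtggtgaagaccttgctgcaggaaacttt
Hdac8, untreated list only: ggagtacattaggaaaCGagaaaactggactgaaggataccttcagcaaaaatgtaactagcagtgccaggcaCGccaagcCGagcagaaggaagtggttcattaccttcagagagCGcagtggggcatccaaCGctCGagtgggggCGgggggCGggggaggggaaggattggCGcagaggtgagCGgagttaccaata

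The adjacent Hdac2 peaks differed in composition. The DOP-treated one held 61.5% GC with 15 CpG, and the untreated one, which lay further into the intron, held 48.5% with 3. The untreated-only peaks of Hdac1 and Hdac8 held 53.0% and 56.0% GC, with 7 and 10 CpG.

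**Figure D1:**
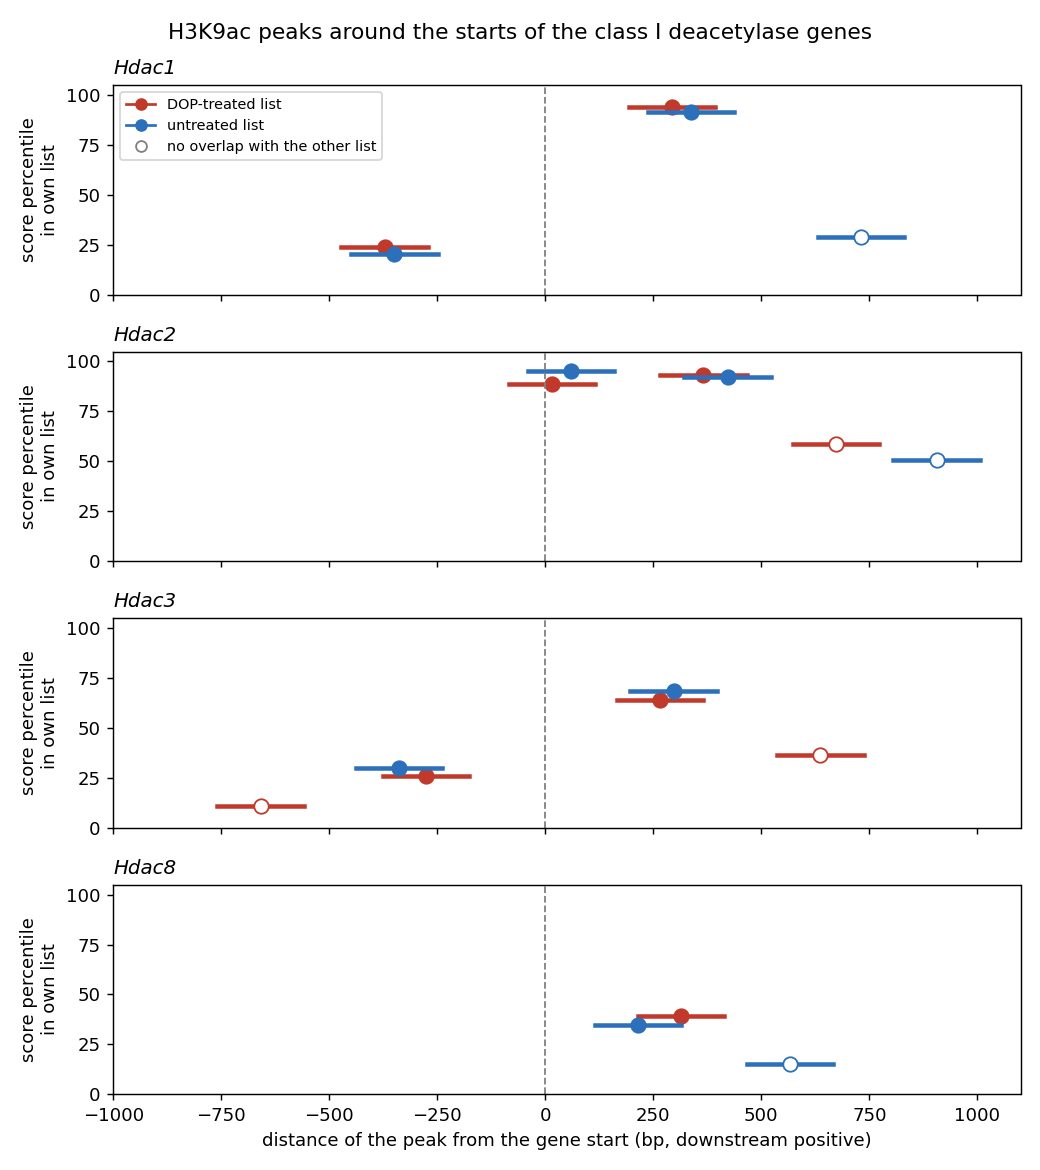
H3K9ac peaks within 1 kb of the gene start of each class I deacetylase, plotted by distance from the start in bp (horizontal axis, downstream positive, dashed line at the start) and by the percentile of their score within their own list (vertical axis). Points are peak centres and bars the 200 bp intervals, red for the DOP-treated and blue for the untreated list, and open points have no overlap with a peak of the other list. Hdac1 and Hdac2 reach percentiles over 90 just downstream of the start, Hdac3 peaks at 63.8 and 68.5, and Hdac8 at 39.2 and 34.6.

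Hdac1 (ENSMUSG00000028800.9, chromosome 4, 129193348 to 129219957, minus strand) encodes one of the paired catalytic subunits of the nuclear corepressor complexes. Its window held 5 peaks with DOP and 6 without, and 2 and 3 of them were nearest to Hdac1 itself. Each peak is placed below by the percentile of its score within its own list, where 100 is the highest-scoring peak, since the lists do not define the score. The main Hdac1 peak lay in the first intron, 293 bp downstream of the start with DOP and 337 bp downstream without. It stood at the 94.0 percentile with DOP and at the 91.5 percentile without. A weaker peak lay upstream, 372 bp from the start at the 23.8 percentile with DOP and 349 bp at the 20.3 percentile without.

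The untreated list alone held a further Hdac1 peak, 731 bp downstream at the 28.6 percentile, and the nearest DOP-treated centre was 438 bp away. Hdac1 therefore had 1 strong peak that both lists placed in its first intron, 1 weak upstream peak in both, and 1 weak downstream peak in the untreated list. Its highest peak stood above the highest peak of 86.0% of genes with a peak of their own with DOP and of 80.9% without. The median of those highest peaks over all such genes was 74.4 with DOP and 73.3 without.

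The remaining 3 Hdac1 peaks of each list lay at Marcksl1, a MARCKS-like protein gene that begins past the far end of Hdac1 on the opposite strand and ends 118 bp from it. Marcksl1 starts 29132 bp from the main Hdac1 start, so these peaks entered the window only through internal Hdac1 transcripts with a retained intron. The nearest internal start, at 129194762, was 2746 to 3653 bp from the DOP-treated centres. These peaks stood at the 42.4, 89.5 and 89.6 percentiles with DOP and at 32.4, 84.5 and 81.3 without, each higher in the DOP-treated list. By position all 6 centres were within 1191 bp of the Marcksl1 start and at least 27941 bp from the main Hdac1 start. Which of these genes the acetylation acts on was not tested.

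Hdac2 (ENSMUSG00000019777.9, chromosome 10, 36694350 to 36721695, plus strand) encodes the close relative that shares these complexes with Hdac1. It had 3 peaks in each list, all nearest to Hdac2 itself. The first lay over the start in its 5′ UTR, at 16 bp and the 88.8 percentile with DOP, and at 59 bp and the 95.2 percentile without. In this pair the untreated peak ranked higher, by 6.41 percentile points. The next peak lay in the first intron, at 366 bp and the 93.4 percentile with DOP, and at 422 bp and the 92.2 percentile without. In both pairs the DOP-treated centre was the nearer to the first start, by 43 and 56 bp.

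Each list also held a last Hdac2 peak that overlapped no peak of the other list. The DOP-treated one lay 673 bp downstream at the 58.4 percentile. The untreated one lay 906 bp downstream at the 50.7 percentile, and their centres were 233 bp apart. By overlap each therefore counted as a peak of a single list, and by position they were neighbours in the same intron. The order of the highest Hdac2 peak also differed between the lists, as the intron peak ranked first with DOP and the start-site peak without. Its highest peak was above that of 84.6% of genes with DOP and 88.9% without.

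Hdac8 (ENSMUSG00000067567.6, chromosome X, 99479978 to 99700698, minus strand) encodes the enzyme that releases the acetyl group from Smc3. It is the longest of these genes at 220.721 kb, against 26.61 kb for Hdac1, 27.346 kb for Hdac2 and 19.145 kb for Hdac3. It had 1 DOP-treated and 2 untreated peaks, all nearest to Hdac8 and all at its 5′ end. The DOP-treated peak was centred in the first coding exon, 314 bp downstream, at the 39.2 percentile. The untreated peak that it overlapped was centred in the 5′ UTR, 215 bp downstream, at the 34.6 percentile. Their centres were 99 bp apart, farther than in 90.4% of all pairs of peaks near starts.

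The further untreated Hdac8 peak lay 567 bp downstream in the first intron at the 15.3 percentile, 253 bp from the DOP-treated centre. By its highest own peak Hdac8 ranked lowest of the 4 genes in each list. That peak stood above that of 16.9% of genes with DOP and 14.7% without.

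Hdac3 (ENSMUSG00000024454.8, chromosome 18, 38095498 to 38114642, minus strand) encodes the catalytic subunit of the NCoR complexes. Its window held 6 peaks with DOP and 4 without, and 3 and 1 of them were nearest to Hdac3 itself. Its highest own peak was centred in the second exon, a coding exon, 266 bp downstream at the 63.8 percentile with DOP and 297 bp at the 68.5 percentile without. This was above the highest peak of 36.6% of genes with DOP and of 43.6% without, so Hdac3 ranked between Hdac8 and the Hdac1 and Hdac2 pair. A peak in the next intron, 637 bp downstream at the 36.5 percentile, was in the DOP-treated list only, 340 bp from the nearest untreated centre.

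Upstream, Hdac3 faces Rell2, a gene of the RELT receptor-like family, whose start lies 571 bp away on the opposite strand. A peak between the starts was found in both lists, 276 bp upstream of Hdac3 at the 25.8 percentile with DOP and 339 bp upstream at the 29.9 percentile without. The DOP-treated centre was the nearer to Hdac3, whereas the untreated one was nearest to Rell2, at 232 bp. This shift of 63 bp across the middle of the shared promoter accounts for 1 of the peaks by which the own counts of 3 and 1 differ. A further DOP-treated peak, at the 10.9 percentile, lay 23 bp from the start of another annotated Rell2 transcript, inside that gene, and 659 bp upstream of Hdac3, with the nearest untreated centre 320 bp away.

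The last 2 peaks of Hdac3 in each list lay at Diap1, a formin gene that regulates actin, whose start side faces the 3′ end of Hdac3 across 367 bp. They were 8963 to 9360 bp from an internal Hdac3 transcript with a retained intron, and within 666 bp of a Diap1 start. They stood at the 86.7 and 20.8 percentiles with DOP and at 85.9 and 19.3 without. The stronger one thus ranked above every peak nearest to Hdac3 in both lists.

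Compared by count, Hdac3 had more peaks with DOP, Hdac1 and Hdac8 had fewer, and Hdac2 had equal numbers. Of the 13272 protein-coding genes with any peak, 32.5% had more DOP-treated peaks, 28.5% had fewer and 39.0% had equal numbers, so each of these outcomes was common over all genes. The pair of counts of Hdac2, 3 and 3, was found at 1125 genes, that of Hdac8 at 489, that of Hdac1 at 157 and that of Hdac3 at 114. The median gene with a peak had 3 in each list. As many DOP-treated peaks as at Hdac3 or more were found at 11.3% of the genes with a DOP-treated peak, and as many as at Hdac1 or more at 20.1%. In the untreated list the shares were 35.5% for the 4 peaks of Hdac3 and 11.1% for the 6 of Hdac1.

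Counting peaks nearest to each gene alone, Hdac1 had 2 and 3 peaks, Hdac2 had 3 and 3, Hdac3 had 3 and 1, and Hdac8 had 1 and 2 in the DOP-treated and the untreated list. The sum was 9 in each list. Peaks nearer to another gene made up 6 of 15 in each list, beside 30.0% of the DOP-treated and 30.0% of the untreated peaks counted in this way over all genes. All 18 own peaks lay within 1 kb of the start of the gene, the farthest at 673 bp with DOP and 906 bp without. Such closeness was the common case over all genes. Of 29561 DOP-treated peaks within 10 kb of a start, 22425 lay within 1 kb of the start of their nearest gene. In the untreated list these were 22154 of 28989. Downstream of the start lay 7 of 9 own DOP-treated peaks and 8 of 9 own untreated peaks, beside 78.6% and 80.5% of all peaks within 1 kb of the start of their nearest gene.

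Between the lists, 12 of the 15 peaks overlapped a peak of the other list by at least 1 bp. The peaks without such overlap were 3 in the DOP-treated list, 1 at Hdac2 and 2 at Hdac3, and 3 in the untreated list, 1 each at Hdac1, Hdac2 and Hdac8. Over all peaks within 10 kb of a start, 16.2% of the DOP-treated and 13.3% of the untreated peaks were found in a single list. Every one of these 6 peaks had a centre of the other list within 500 bp, at 233 to 438 bp. Among all such single-list peaks near starts this held for 38.2% with DOP and 44.4% without, and their median distances to the other list were 633 and 562 bp. At the class I genes the lists thus differed in the number and placing of peaks. No single-list peak lay farther than 438 bp from a centre of the other list. At Hdac2 the nearest such centre, 233 bp away, was itself that of a single-list peak.

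The single-list peaks ranked below the overlapping ones by their medians, though both at Hdac2 stood above the 50 percentile. In the windows of the deacetylase genes the median percentile of single-list peaks was 36.5 with DOP and 28.6 without, against medians of 75.2 and 74.9 for the overlapping peaks. These medians include peaks at neighbouring genes, as only 7 of 12 overlapping peaks with DOP and 6 of 12 without were own peaks. The median over all own peaks was 58.4 with DOP and 50.7 without. For peaks nearer to another gene it was 64.6 and 56.8. Over all peaks near starts the medians were 22.0 and 22.6 for single-list peaks, and 61.3 and 59.7 for the others.

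**Figure D2:**
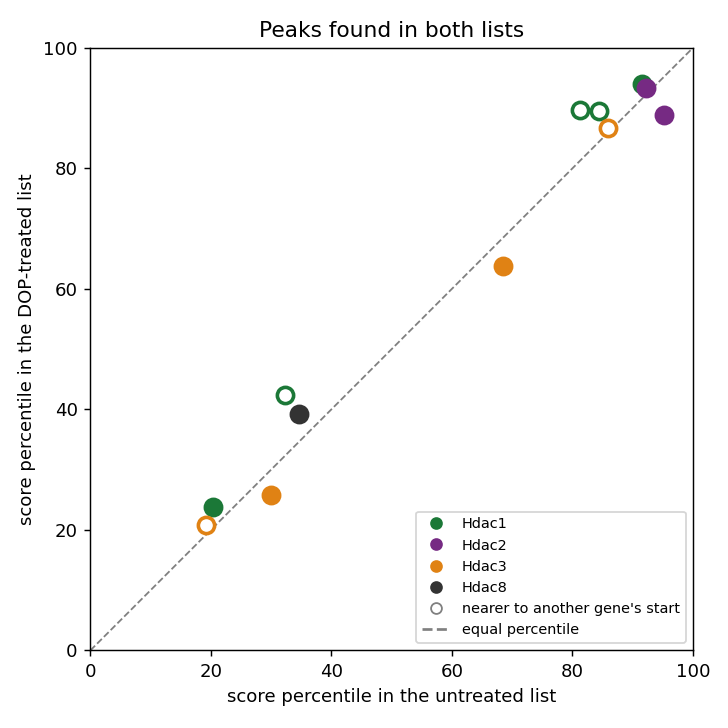
The 12 pairs of overlapping peaks in the windows of the class I deacetylase genes, with the percentile of the score in the untreated list (horizontal axis) and in the DOP-treated list (vertical axis). Colours give the gene, open points are pairs nearer to the start of another gene in both lists, and the dashed line marks equal percentiles. In 9 pairs the point lies above the line, and the 3 below it are the start-site pair of Hdac2 and both pairs of Hdac3 that are filled.

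Of the 12 pairs, 9 ranked higher with DOP and 3 without, beside 58.3% of the 22837 pairs near starts that ranked higher with DOP. Where the peak was nearest to the deacetylase in the DOP-treated list, 4 of 7 pairs ranked higher with DOP. These were both pairs of Hdac1, by 2.46 and 3.49 percentile points, the intron pair of Hdac2, by 1.23, and the pair of Hdac8, by 4.59. Both such pairs of Hdac3 ranked higher without DOP, by 4.66 and 4.19 points, as did the start-site pair of Hdac2. The pairs at Marcksl1 differed by 5.05 to 10.1 points and included the largest difference of the 12. The median size of the difference was 4.39 points for the 12 pairs and 5.33 points for all pairs near starts, so the class I pairs moved about as far as pairs elsewhere. Taken with its sign, DOP-treated minus untreated, the median difference was 1.30 points for all pairs near starts. It was 1.99 points for the 12 pairs and 1.23 for the 7 pairs. A rank within a list cannot show a rise or fall shared by all peaks. The centres of the 12 pairs were a median of 37 bp apart, with a range of 14 to 99 bp, beside a median of 30 bp over all pairs.

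The sequence under the peaks was not used to choose them. Own peaks of the class I genes had a median GC content of 56.0% in each list, with a range of 47.5% to 78.0% with DOP and of 48.5% to 80.0% without. The median over each list was 59.5%, and over its peaks within 1 kb of a start 62.0% with DOP and 62.5% without. The own peaks held a median of 8 CpG dinucleotides, where the medians of the lists were 10 and 11, and those of peaks within 1 kb of a start were 13 in both. Hdac2 stood apart within the group. Its start-site peak held 78.0% GC and 29 CpG with DOP and 80.0% and 30 without, more GC than 95.5% and 97.4% of the peaks of the same list. The main peak of Hdac3 held 51.5% GC and 3 CpG with DOP and 52.5% and 3 without.

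**Figure D3:**
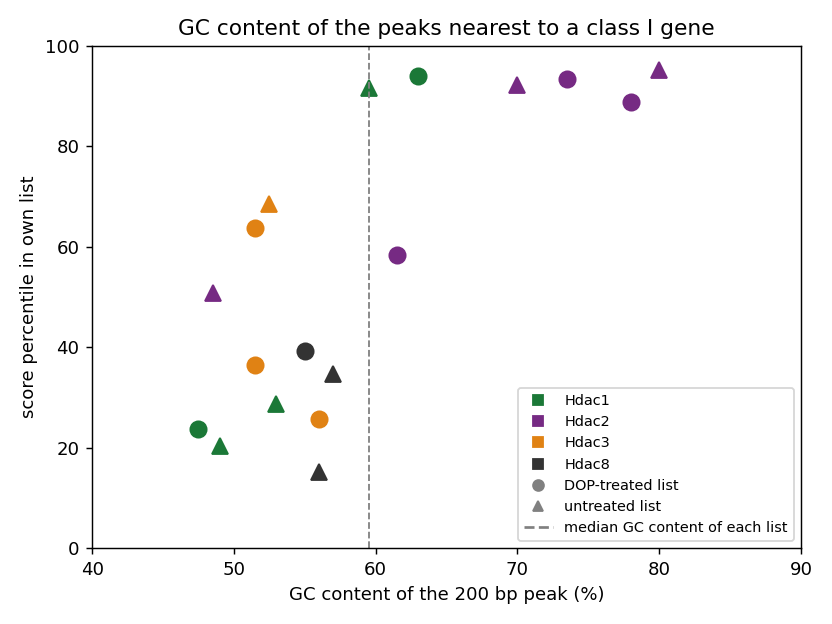
GC content of the 200 bp under each peak nearest to a class I deacetylase gene (horizontal axis, %) against the percentile of its score in its own list (vertical axis). Colours give the gene, circles the DOP-treated and triangles the untreated list, and the dashed line is the median GC content of each list, 59.5%. The overlapping Hdac2 peaks lie farthest to the right, at 70.0% to 80.0%, and the peaks of Hdac3 and Hdac8 lie left of the line.

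Promoter motifs were searched on both strands of these peaks, with letters none of which contains another. The GC box GGGCGG was in 1 of 9 own DOP-treated peaks, at Hdac2, and in 3 of 9 untreated peaks, at Hdac2 and Hdac8, beside 28.5% and 29.3% of all peaks. In the Hdac2 sequences above it stands in reverse, as CCGCCC, in the capitals before the start and at the end of the intron stretch. CCAAT was in 1 of 9 and 2 of 9 own peaks, at Hdac3 and, without DOP, also at Hdac8, beside 13.9% and 13.6%. TATAAA was in 1 DOP-treated peak, at Hdac8, and in no untreated one, beside 3.21% and 3.26%. Among peaks within 1 kb of a start, where all own peaks lie, the GC box was in 33.0% and 33.6%. There CCAAT was in 13.1% and 12.7%, and TATAAA in 2.67% and 2.60%. The cAMP response element TGACGTCA (0.213% and 0.228% of all peaks), the E-box CACGTG (3.30% and 3.37%), the ETS motif CCGGAAG (3.49% and 3.72%) and the NRF1 core GCGCATGC (0.507% and 0.498%) were in no own peak, which says only that these letters are not in these windows.

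The other deacetylase classes were described by the same rule. Of the class II and IV genes, whose zinc-dependent enzymes include the signal-regulated Hdac4, Hdac5, Hdac7 and Hdac9 and the tubulin deacetylase Hdac6, 5 of 7 had a peak in each list, and Hdac4 and Hdac9 had none. They had 25 DOP-treated and 18 untreated peaks, with more in the DOP-treated list at 4 genes, equal numbers at 1 and fewer at 0. The largest difference was at Hdac7, with 10 and 7 peaks. Of the 25 and 18 peaks, 17 and 14 were nearest to a gene of these classes. The sirtuins, which use NAD+ instead of zinc, had a peak at 7 of 7 genes in each list, 32 and 28 in all, with more in the DOP-treated list at 4, equal numbers at 3 and fewer at 0. Of these peaks 17 and 15 were nearest to a sirtuin gene, and those of Sirt3 were all nearer to another gene. In class I, Hdac1 and Hdac8 had fewer DOP-treated peaks, each by 1. Fewer own peaks with DOP were also found outside class I, at Hdac10 with 2 and 3 and at Sirt2 with 1 and 2, genes named after their values were seen. Whether the classes differ was not tested, since genes of 2 lists are not replicates of a condition.

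**Figure D4:**
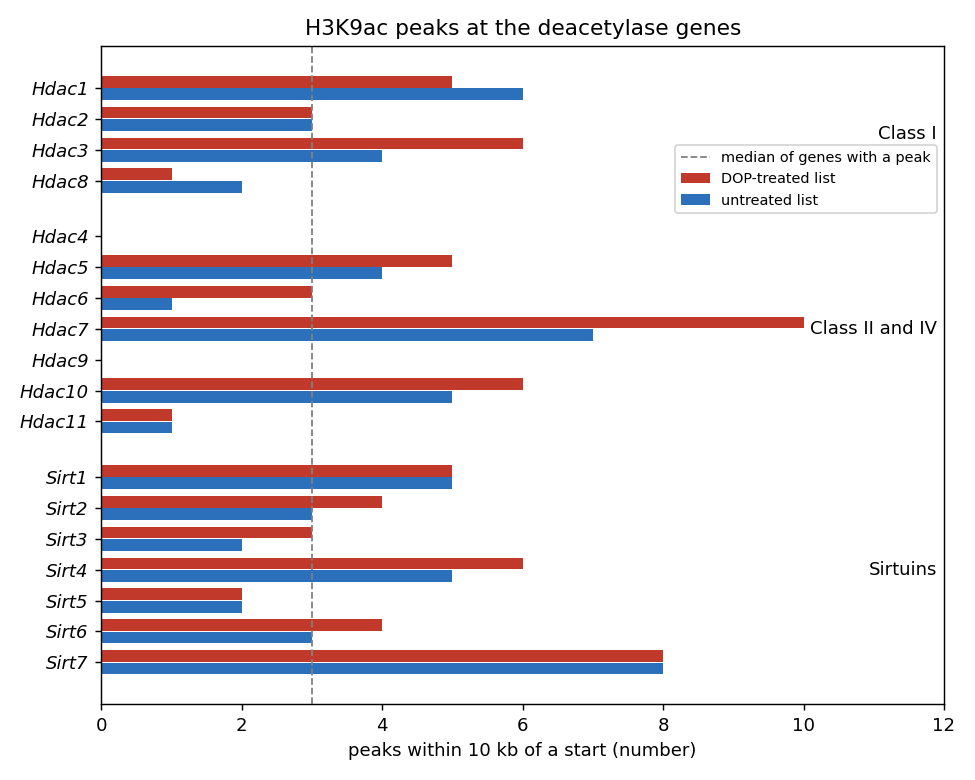
Number of H3K9ac peaks within 10 kb of a start (horizontal axis) for each deacetylase gene (vertical axis), with red bars for the DOP-treated and blue bars for the untreated list and a dashed line at the median of genes with a peak, 3 in each list. Hdac1 and Hdac8 have the shorter red bar, Hdac3 the longer, and Hdac4 and Hdac9 have no bar.

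The partners of class I enzymes were the further genes of the pathway. Of 40 genes listed, 39 had a peak in each list, and the exception was Gatad2b, a NuRD subunit. The 40 include 5 cohesin genes, listed because Hdac8 deacetylates Smc3. Those 5 are not subunits of a deacetylase complex. The 40 genes had 173 DOP-treated and 180 untreated peaks, with more in the DOP-treated list at 12 genes, fewer at 21 and equal numbers at 6. Of the 5 cohesin genes, 1 had more and 4 had fewer. The shares over all genes with a peak were the 32.5%, 28.5% and 39.0% given above, and the set was not tested against them. The median highest own percentile of the 40 was 92.7 with DOP and 92.0 without, beside 74.4 and 73.3 over all genes. The median gene of the 40 thus ranked near Hdac1 and Hdac2 and above Hdac3 and Hdac8. For the cohesin genes alone the medians were 96.3 and 94.5.

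Of the Sin3 complex, the scaffold that holds Hdac1 and Hdac2, 3 of 12 genes had more DOP-treated peaks and 7 had fewer. Its scaffold gene Sin3a had 7 DOP-treated and 3 untreated peaks, the largest difference of the partners. Of the NuRD complex, which couples deacetylation to nucleosome remodelling, 3 of 9 genes had more and 4 had fewer, with the largest differences at the remodeller gene Chd3, 5 and 3 peaks, and at Mta3, 4 and 2. The histone-binding subunits shared by Sin3 and NuRD both had more, with 5 and 4 peaks at Rbbp4 and 5 and 3 at Rbbp7.

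Of the CoREST complex, which pairs deacetylation with removal of histone methylation, 1 of 5 genes had more and 3 had fewer. Its demethylase gene Kdm1a had 5 and 2 peaks, and its scaffold gene Rcor1 had 4 and 7. Of the MiDAC genes, Dnttip1 had 4 and 3 peaks and Trerf1 had 1 and 3. Of the cohesin genes, 1 of 5 had more and 4 had fewer, with the largest difference at Stag2, 4 and 6 peaks. The Hdac8 substrate gene Smc3 had 3 and 4 peaks, with its highest at the 99.4 and 99.1 percentiles, against 39.2 and 34.6 at Hdac8 itself.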

How the data were processed

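H3K9ac ChIP-seq reads of STHdh Q111 cells were aligned to mm9 by the authors, whose methods name Bowtie 2, while the submitters' processing notes list BWA 0.7.10. Peaks were called with GPS. How the 2 samples of a condition and the IgG sample entered the call is not given in the sources used here. The deposited files give 1 peak list per condition, with a score for each peak. The authors' score has no stated definition, so it was used only to rank peaks within their own list (tied scores share their mean rank). Depth per sample is unknown. The lists hold more peaks than the study's methods give, so a filter applied by the authors after the call may be missing from them. With a minimum score of 100 the class I genes had 15 peaks in each list, as without it.

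The NCBIM37 assembly (mm9) was used, and every peak lay within its chromosome lengths. Protein-coding genes of GENCODE vM1 on that assembly gave transcript starts, exons and the nearest gene, and where 2 records share a symbol (Hdac4, Gsx2) the longer was used. Peaks overlapping by at least 1 bp were paired. GC content, CpG and motifs were read from the assembly. The genes described and the gene lists were chosen with earlier results of these data known. Beyond the class I genes, the rule named genes nearest to one of their peaks, genes of the other lists with no peak in a list, and those with the largest difference in peak number. Cell type markers were named from their own list, and Smc3, Rbbp4, Dnttip1, Hdac10, Sirt2 and Sirt3 were named outside the rule after their values were seen. The functions were tested on simulated data. No statistical test was run, since each condition has 1 list. Alternatives were windows of 1, 5 and 20 kb, the gene-level start, nearest peaks only, score limits and other rules for overlap. Python 3.11.15, numpy 2.4.6, pandas 2.3.3 and matplotlib 3.10.9 were used. The IgG sample was not analysed here. Values of the subunits that work with Hdac3 are not reported here one by one.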

Additional observations from a re-analysis of the deposited data

How the results depend on the processing

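Of 66 values recomputed under an alternative, 48 stayed within 1.5 times the value given above and 18 moved further. Each value is a count in 1 list, so none had a direction that could turn. With a window of 20 kb the totals were 19 DOP-treated and 17 untreated. With windows of 1 and 5 kb the lists had equal totals, 10 and 13 in each. With peaks nearest to a class I gene only, the counts were 9 DOP-treated and 9 untreated instead of 15 and 15. Limited to the 50% of each list with the highest scores, the counts were 8 and 8, with 1 and 1 found in a single list. When a centre of the other list within 500 bp, or within 1 kb, counted as shared, 0 DOP-treated and 0 untreated peaks were found in a single list, instead of 3 and 3. With starts of protein-coding transcripts only, an alternative chosen after seeing the data, there were 10 and 10 peaks, and the single-list counts were 3 and 3. Of 32 counts per gene, 8 moved, all at Hdac1 and Hdac3, where the windows hold peaks of neighbouring genes. With a window of 1 kb, Hdac1 had 2 and 3 peaks. No paired analysis was possible because each condition has 1 peak list, and for the same reason no replicate could be left out. Peak counts do not measure read density, and the depth behind a peak is unknown, so a peak missing from 1 list is not shown to be absent from those cells.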
